A study of Mus musculus with 12 samples.

Results

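The genes described here are 4 ligands and 4 receptors of the fibroblast growth factor (FGF) family, *Fgf4*, *Fgf5*, *Fgf8*, *Fgf15*, *Fgfr1*, *Fgfr2*, *Fgfr3* and *Fgfr4*. They were chosen by symbol from the 23086 gene symbols of the count table, and all 8 had a row. Of the 8 genes, 6 passed the filter on low counts and were tested, while *Fgfr3* and *Fgfr4* did not and are given as counts.

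FGF ligands are secreted proteins that bind receptor tyrosine kinases together with heparan sulfate, and the active receptors signal through the RAS and ERK kinases. In the mouse epiblast, the tissue that pluripotent cells stand for, FGF4 made by naive cells drives their exit from the naive state, and *Fgf5* is switched on as cells pass to the formative and primed state. FGFR1 is the main FGF receptor of epiblast cells, and FGFR2 is known in the blastocyst for its part in primitive endoderm and trophoblast.

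RNA was measured in embryoid bodies, aggregates of differentiating embryonic stem cells, grown for 2 days from mouse cells of the A2lox.cre type. These cells switch on a transgene when the antibiotic doxycycline is given. The mutant line carries FLAG-Lhx1 mutant, a form of the tagged LIM homeodomain factor with a change that the labels do not describe, and the wild-type line carries FLAG-Lhx1 wild-type. Embryoid bodies of the mutant line with doxycycline for 16 h, the mutant line without it, the wild-type line with doxycycline for 16 h and the wild-type line without it formed 4 groups of 3 libraries. Each form was present in 1 line, so the form of *Lhx1* and other differences between the lines cannot be told apart. Nothing in the labels states whether the 3 libraries of a group came from separate cultures. P-values therefore rest on the spread among these libraries alone, and that spread may be technical.

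The 12 libraries held 4289984 to 4850393 counts each. *Lhx1* checked the doxycycline labels. It had 235 to 260.2 CPM (counts scaled to a common TMM-adjusted library size) in the mutant line with doxycycline and 0.407 to 0.429 without it. The wild-type line had 289 to 307 CPM with doxycycline and 1.12 to 3.33 without it. Counts per gene do not tell the mutant from the wild-type form, so *Lhx1* did not check the line labels. Induced *Lhx1* was lower in the mutant line, and the part of this in the results below was not tested. All 9 epiblast markers looked at were detected in every group, with summed levels of 5680 to 6843 CPM over the 12 libraries. Markers of primitive and extraembryonic endoderm summed to 17.8 to 38.9 CPM, those of trophoblast to 10.5 to 17.5 and those of fibroblasts to 15.5 to 30.3. Those of primitive streak and mesoderm summed to 68.0 to 80.9 CPM, mostly from *Lefty2* (group means of 62.3 to 72.6 CPM). Neural plate markers had the widest range among these other lists, 54.0 to 214 CPM, mostly from *Nes*, and their sums were higher in both mutant groups. *Nes* had means of 186 and 188 CPM in the mutant line with and without doxycycline, against 45.1 and 49.0 CPM in the wild-type line. *Pax6* had 6.36 and 6.60 CPM in the mutant line with and without doxycycline, against 9.93 and 3.97 CPM in the wild-type line. Wild-type library 2 with doxycycline stood apart in the share of counts from the ribosomal RNA precursor *Rn45s* (1.45%, against at most 0.265% elsewhere), and wild-type library 3 without doxycycline in *Bnip3*, a gene induced by low oxygen (229 CPM, against 58.5 and 63.3 CPM in the others of its group). Every call of an FGF ligand or receptor reported below was also made without these 2 libraries.

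*Fgf5*, *Fgf4* and *Fgfr1* were the abundant members. Per kilobase of exon (RPKM), *Fgf5* had 67.6 ± 3.03 in the mutant line with doxycycline, 69.1 ± 3.01 in the mutant line without it, 63.7 ± 3.15 in the wild-type line with it and 34.5 ± 1.96 in the wild-type line without it (mean ± SD, n = 3). *Fgf4* had 26.1 ± 1.82 RPKM in the mutant line with doxycycline, 26.6 ± 2.49 in the mutant line without it, 38.3 ± 1.05 in the wild-type line with it and 50.1 ± 1.57 in the wild-type line without it. *Fgf5* was therefore the highest of the 8 genes in 3 groups, and *Fgf4* was the highest in the wild-type line without doxycycline.

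*Fgfr1* followed with mean levels of 11.9 to 14.3 RPKM over the 4 groups and *Fgf15* with 8.11 to 13.1. Libraries of *Fgfr1* and *Fgf15* overlapped in the mutant line without doxycycline and in the wild-type line with it. *Fgfr2* (1.57 to 4.34 RPKM) and *Fgf8* (0.965 to 1.70) came next and overlapped in both mutant groups. *Fgfr4* (0.260 to 0.599) and *Fgfr3* (0.157 to 0.202) were lowest. With the longest transcript in place of the union of exons as gene length, *Fgfr1* stood at 23.4 to 28.1 RPKM and overlapped *Fgf4* in both mutant groups, so the order of these 2 genes there depends on the gene model. The union length of *Fgfr2* includes exons of a read-through transcript that reaches beyond the RefSeq gene. With the longest transcript *Fgfr2* stood at 3.66 to 10.1 RPKM and overlapped *Fgf8* in none of the 4 groups.

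**Figure D1:**
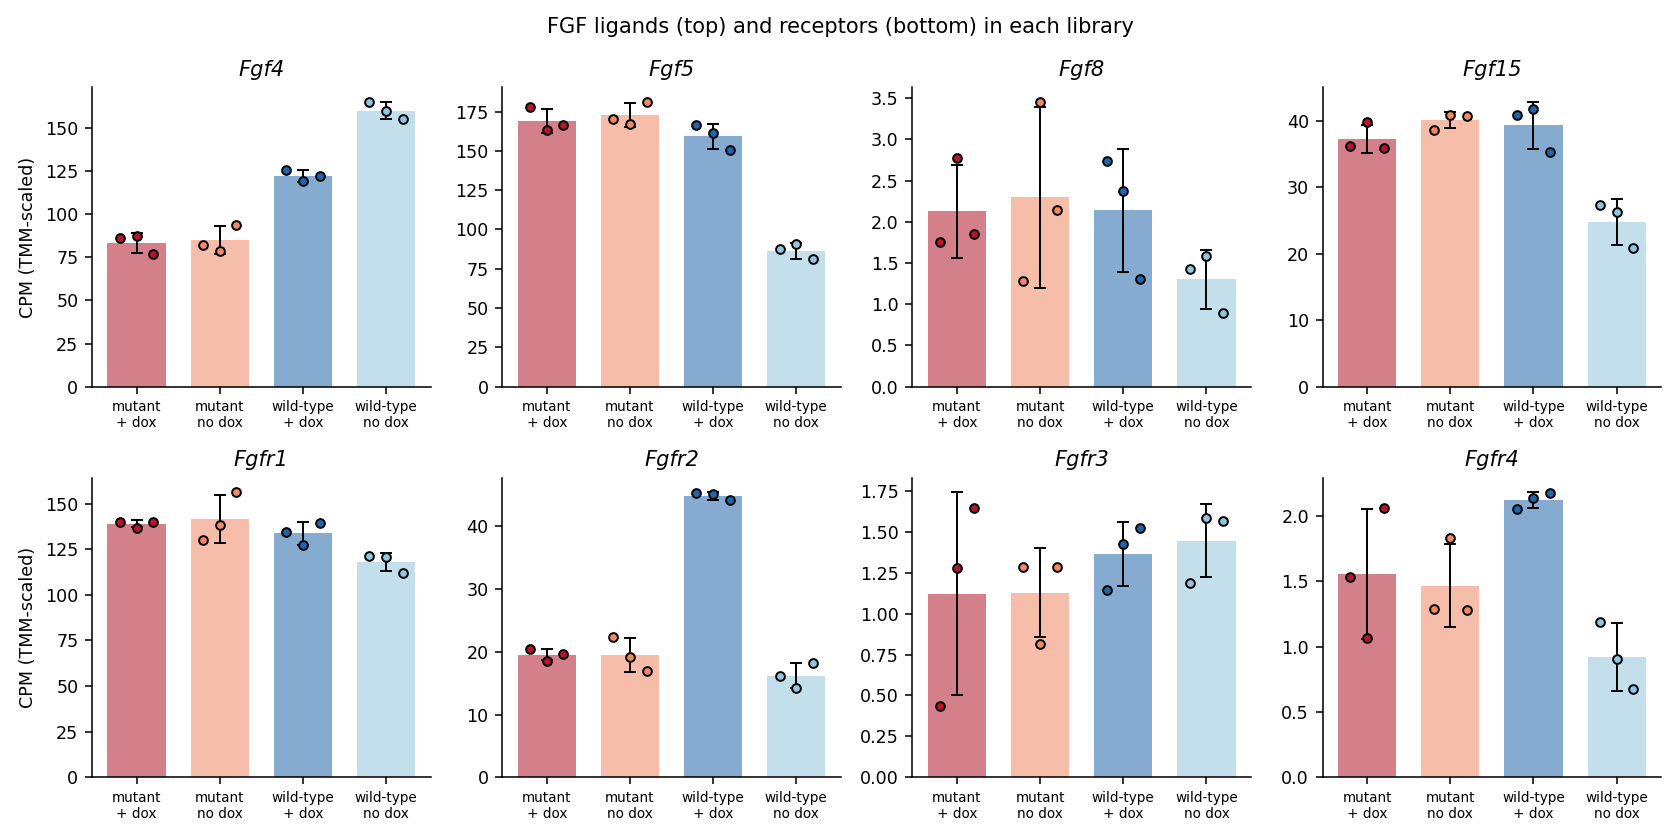
CPM of the 8 genes (linear axes from 0, a scale of its own for each gene) in the mutant line with and without doxycycline and the wild-type line with and without it. Bars are means of 3 libraries, error bars SD and points libraries. *Fgf5* and *Fgf15* are lower in the wild-type line without doxycycline than in the other groups, *Fgf4* is highest there, and *Fgfr2* is high in the wild-type line with doxycycline (45.3, 45.1 and 44.1 CPM).

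Induction of wild-type FLAG-Lhx1 was accompanied by a shift in ligand transcripts. *Fgf5* (chromosome 5, 98254184 to 98277033, mm10, plus strand) had 166, 161 and 151 CPM in the wild-type libraries with doxycycline, against 87.8, 90.4 and 80.9 CPM in those without it. All 3 induced libraries lay above all 3 uninduced ones. The rise was 1.84-fold, or 0.88 ± 0.06 (SE) as a log2 fold change. Its adjusted p was 4.45e-17 by the quasi-likelihood test of edgeR, adjusted over all 12322 genes tested by the Benjamini-Hochberg method.

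*Fgf4* (chromosome 7, 144861386 to 144865245, plus strand) went the other way. It had 126, 119 and 122 CPM with doxycycline, against 165, 160 and 155 CPM without it. The groups did not overlap, and the fall was 0.39 on the log2 scale (edgeR adjusted p = 5.38e-06, SE 0.06). In bulk samples fewer cells that express a gene and less RNA per cell cannot be told apart.

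The proximal promoters of this pair of oppositely moving ligands are shown as context for the change. RefSeq gives 1 window each, from 250 bases before to 50 bases after the annotated start (GRCm38.p6, plus strand, chr7:144861136-144861435 for *Fgf4* and chr5:98253934-98254233 for *Fgf5*). Capitals mark GGGCGG, a GC box bound by SP factors, on either strand and TATAAA, the core of a TATA box.
Fgf4: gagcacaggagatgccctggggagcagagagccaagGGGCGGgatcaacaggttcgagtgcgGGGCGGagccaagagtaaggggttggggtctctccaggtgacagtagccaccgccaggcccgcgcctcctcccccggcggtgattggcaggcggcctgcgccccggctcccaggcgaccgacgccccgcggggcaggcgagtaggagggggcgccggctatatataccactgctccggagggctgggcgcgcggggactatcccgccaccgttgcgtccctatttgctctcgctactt
Fgf5: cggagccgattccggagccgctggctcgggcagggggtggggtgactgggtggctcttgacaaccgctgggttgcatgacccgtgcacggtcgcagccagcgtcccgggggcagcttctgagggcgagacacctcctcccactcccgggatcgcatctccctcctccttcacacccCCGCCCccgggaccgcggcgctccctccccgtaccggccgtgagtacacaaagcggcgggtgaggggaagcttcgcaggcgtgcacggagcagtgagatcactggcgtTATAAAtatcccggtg
Both windows were rich in G and C (69.7% in *Fgf4* and 68.3% in *Fgf5*). The *Fgf4* window held GGGCGG 214 and 188 bases upstream of the start, and the *Fgf5* window held it on the other strand 74 bases upstream. GGGCGG occurs in 35.7% of all 32851 promoter windows of this length, on either strand. TATAAA, found in 13.6% of windows, lay 34 bases downstream of the *Fgf5* start. Only exact matches were looked for, so the stretch tatatata upstream of the *Fgf4* start is not marked. Neither window held TAATTA, the core letters of LIM homeodomain sites (5.29% of windows), or ATGCAAAT, the POU factor octamer (1.74%). The motifs do not overlap one another, and a match is a description of the letters in these windows.

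*Fgf15*, the mouse counterpart of human FGF19 and a ligand of the early neural plate, rose with *Fgf5*. It had 40.9, 41.8 and 35.2 CPM in the wild-type libraries with doxycycline, against 27.4, 26.2 and 20.8 CPM in those without it. The groups did not overlap, and the rise was 1.58-fold (edgeR adjusted p = 1.07e-05, log2 fold change 0.66, SE 0.11). *Fgf15* (chromosome 7, 144896532 to 144900953, plus strand) begins 31287 bases beyond the end of *Fgf4*, so these 2 ligands moved in opposite directions although they are neighbours. The cyclin gene *Ccnd1*, 28978 bases from *Fgf15*, had a log2 fold change of −0.00 (edgeR adjusted p = 0.993), with a sign that turned under some alternatives, and *Fgf3*, 18038 bases from *Fgf4*, held 58 counts over the 12 libraries and was not tested. Neural plate markers, which *Fgf15* is known to accompany, summed to 58.0 to 64.4 CPM with doxycycline, against 54.0 to 60.8 CPM without it. Of 3 tested, 1 was called by edgeR, *Pax6* (log2 fold change 1.32), with means of 9.93 CPM with doxycycline and 3.97 CPM without it. *Nes*, most of the sum, did not rise with it, at 45.1 CPM with doxycycline and 49.0 CPM without it. The part of neural plate cells in the *Fgf15* result was not tested. The annotation places 2 antisense genes over *Fgf15* and 1 over *Fgfr1*. Whether counting used strand is not stated, so antisense reads could be included in these values.

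*Fgf8*, a ligand of the primitive streak and later signalling centres, stood near the lower limit of the data. It had 2.74, 2.38 and 1.30 CPM with doxycycline, against 1.43, 1.58 and 0.897 CPM without it in the wild-type line. The groups overlapped. The log2 fold change was 0.70 with a 95% interval of −0.22 to 1.62 (edgeR adjusted p = 0.505, SE 0.46). A change of a size within that interval cannot be left out. These libraries held 28 counts with doxycycline and 17 without it.

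Among the receptors *Fgfr2* changed most. *Fgfr2* (chromosome 7, 130162451 to 130266808, minus strand) had 45.3, 45.1 and 44.1 CPM in the wild-type libraries with doxycycline, against 16.2, 14.2 and 18.2 CPM in those without it. Every induced library held more than 2 times the level of any uninduced one. The rise was 2.76-fold, with a log2 fold change of 1.47 (edgeR adjusted p = 4.28e-15, SE 0.12), the largest response among the 6 tested genes.

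No tested marker of the tissues in which *Fgfr2* is best known was called higher. Summed markers of primitive and extraembryonic endoderm stood at 17.8 to 19.95 CPM in the wild-type line with doxycycline, against 21.4 to 23.98 CPM without it. Of the 4 tested, 0 were called by edgeR and 0 by DESeq2, with 3 at an unadjusted edgeR p under 0.05. *Dab2*, which made up much of the sum, had a log2 fold change of −0.55 (edgeR adjusted p = 0.0662) and *Cubn* one of −0.77 (edgeR adjusted p = 0.306). *Pth1r* had 3.66, 3.33 and 5.001 CPM with doxycycline, against 2.38, 1.81 and 2.91 CPM without it, with no overlap (log2 fold change 0.76, edgeR adjusted p = 0.193). *Hnf4a*, *Sox17* and other markers of that list were low: 7 of 10 had a mean under 1 CPM with doxycycline, against 6 of 10 without it. Trophoblast markers summed to 10.5 to 11.96 CPM with doxycycline, against 11.3 to 16.2 CPM without it, with 0 of 3 tested markers called by edgeR or DESeq2, 0 at an unadjusted edgeR p under 0.05, and *Elf5* at 0 in both groups. Epiblast markers summed to 5680 to 5751 CPM with doxycycline, against 6070 to 6351 CPM without it. Of 9 tested, 2 were called lower by edgeR, *Nanog* (log2 fold change −0.48) and *Pou5f1* (−0.21). DESeq2 called 3 of the 9 epiblast markers, and 6 had an unadjusted edgeR p under 0.05. The part of any of these cells in the *Fgfr2* result was not tested.

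*Fgfr1* (chromosome 8, 25518759 to 25575718, plus strand) had 134, 127 and 140 CPM in the wild-type libraries with doxycycline, against 121, 121 and 112 CPM in those without it. The groups did not overlap, but the difference was small and was not called (log2 fold change 0.18, 95% interval 0.06 to 0.31, edgeR adjusted p = 0.0775). *Fgfr4* (chromosome 13, 55152818 to 55168759, plus strand) held 9, 9 and 10 counts with doxycycline, against 5, 4 and 3 without it. Over the groups these 28 and 12 counts gave a ratio of 2.32 with a 95% exact counting interval of 1.14 to 5.001. *Fgfr3* (chromosome 5, 33721724 to 33737068, plus strand) held 18 counts with doxycycline, against 19 without it, a ratio of 0.940 (0.465 to 1.89). These intervals cover counting error only, and neither gene was tested.

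Induction of the wild-type form thus gave 4 calls among the 6 genes tested (3 higher, 1 lower), where 5.32% of all genes tested were called, 2.76% higher and 2.56% lower. The median log2 fold change of the 6 was 0.68, against −0.00 over all genes tested. Libraries of the groups were fully separate for 5 of the 6, as they were for 18.9% of all genes tested. The genes had been picked with earlier results of these libraries known, so these counts describe them and are no independent evidence.

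The receptor mix changed with *Fgfr2*. *Fgfr2* made up 23.4%, 24.2% and 22.2% of summed receptor RPKM in the wild-type libraries with doxycycline, against 10.9%, 9.79% and 13.0% in those without it, while *Fgfr1* made up 72.5% ± 1.07 with doxycycline and 85.5% ± 1.43 without it (SD, n = 3 each). The *Fgfr2* share differed by 12.02 percentage points, more than the spread between replicates (exact permutation test, two-sided, p = 0.10, the smallest that 3 against 3 allows). *Fgfr3* and *Fgfr4* together stayed a small part of the receptor signal, at 1.02% and 3.21% with doxycycline, against 1.45% and 1.85% without it. Summed receptor RPKM was 18.7 ± 0.587 with doxycycline and 14.0 ± 0.416 without it. In the mutant line the *Fgfr2* share was 11.4% ± 0.385 with doxycycline and 11.3% ± 2.26 without it (exact permutation p = 1).

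**Figure D2:**
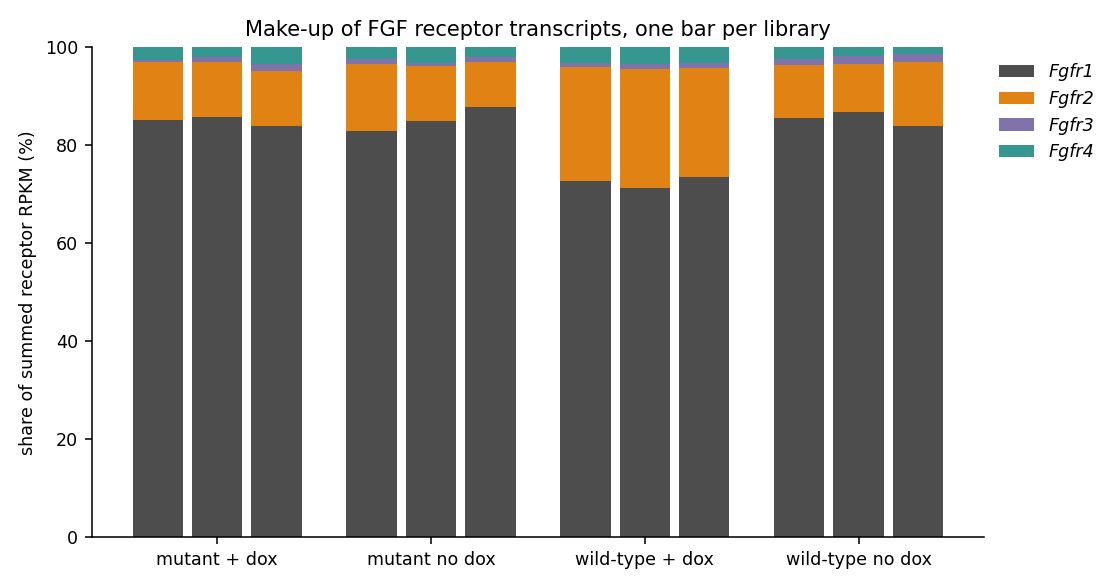
Share of each receptor in the summed receptor RPKM (%), 1 bar per library, for the mutant line with and without doxycycline and the wild-type line with and without it. *Fgfr1* takes most of every bar, and *Fgfr2* takes 22.2% to 24.2% in the wild-type line with doxycycline and 9.08% to 13.6% in the other 9 libraries.

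The balance of the primed ligand *Fgf5* over the naive ligand *Fgf4* separated 3 levels. The ratio of their RPKM was 2.64, 2.38 and 2.78 in the mutant line with doxycycline, against 2.66, 2.71 and 2.47 in the mutant line without it. It was 1.69, 1.73 and 1.58 in the wild-type line with doxycycline, against 0.678, 0.724 and 0.665 in the wild-type line without it. In the wild-type line doxycycline moved the log2 ratio by 1.27, to 0.73 ± 0.07 against −0.54 ± 0.06 (exact permutation test, two-sided, p = 0.10, n = 3 each), and thus across the point of equal levels. Mutant libraries with doxycycline still lay above wild-type ones with it, by 0.64 on the log2 scale (exact permutation p = 0.10).

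**Figure D3:**
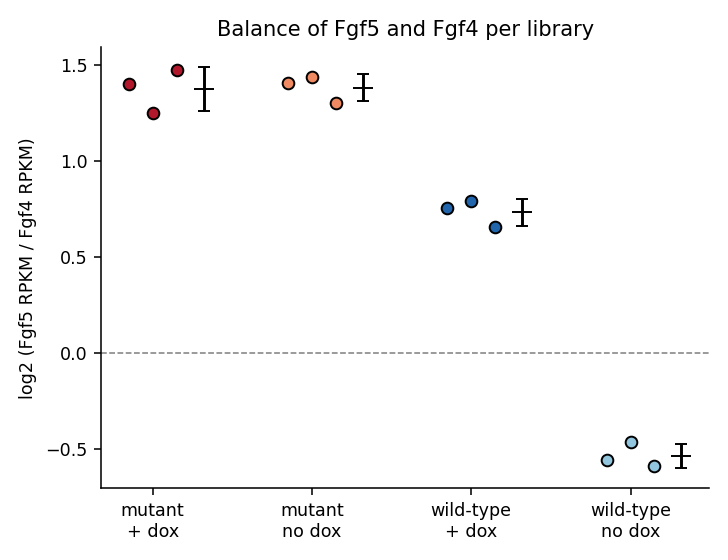
log2 ratio of *Fgf5* to *Fgf4* RPKM per library (points) with mean and SD beside them, for the mutant line with and without doxycycline and the wild-type line with and without it. Libraries of the wild-type line without doxycycline lie below 0 (−0.59 to −0.47), those with it at 0.66 to 0.79, and all mutant libraries at 1.25 to 1.47.

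In the mutant line the FGF genes were not called with doxycycline. *Fgf5* had 178, 163 and 167 CPM with doxycycline, against 170.5, 167 and 181 CPM without it, and *Fgfr2* had 20.4, 18.6 and 19.6 CPM with it, against 22.3, 19.1 and 16.9 CPM without it. The libraries overlapped between the groups for all 6 tested genes, while 10.6% of all genes tested had no overlap. No member was called by edgeR or by DESeq2, and 0 of 6 had an unadjusted edgeR p under 0.05. Log2 fold changes ran from −0.12 to 0.00 (edgeR adjusted p = 0.999 to 1.00), and 0.0162% of all genes tested were called in this comparison. The 95% interval of the change was −0.14 to 0.08 for *Fgf5*, −0.16 to 0.11 for *Fgf4*, −0.30 to 0.09 for *Fgf15* and −0.25 to 0.26 for *Fgfr2*, which leaves out changes of the size seen in the wild-type line. *Fgfr1* had 140.1, 137 and 140.1 CPM in the mutant line with doxycycline, against 130.3, 138 and 156 CPM without it, and *Fgf8* had 1.75, 2.78 and 1.85 CPM with it, against 1.29, 3.46 and 2.14 CPM without it. *Fgfr4* held 22 and *Fgfr3* 16 counts with doxycycline, against 21 and 16 without it, with count ratios of 1.06 (95% exact interval 0.555 to 2.02) and 1.01 (0.473 to 2.16).

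The difference between the responses was tested directly, as the mutant response minus the wild-type response. It was called for *Fgfr2* (log2 −1.46, edgeR adjusted p = 1.22e-08, SE 0.17), *Fgf5* (−0.91, edgeR adjusted p = 2.77e-12, SE 0.08), *Fgf15* (−0.77, edgeR adjusted p = 0.000321, SE 0.15) and *Fgf4* (0.36, edgeR adjusted p = 0.0145, SE 0.09). These are 4 of the 6 tested genes, where 2.49% of all genes tested were called, 1.09% higher and 1.4% lower. The call of *Fgf4* was lost in DESeq2 (adjusted p = 0.111) and when mutant library 1 or 2 of either treatment was left out (edgeR adjusted p = 0.0589 to 0.0993). The difference was not called for *Fgfr1* (−0.21, edgeR adjusted p = 0.237) or *Fgf8* (−0.82, edgeR adjusted p = 0.631).

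**Figure D4:**
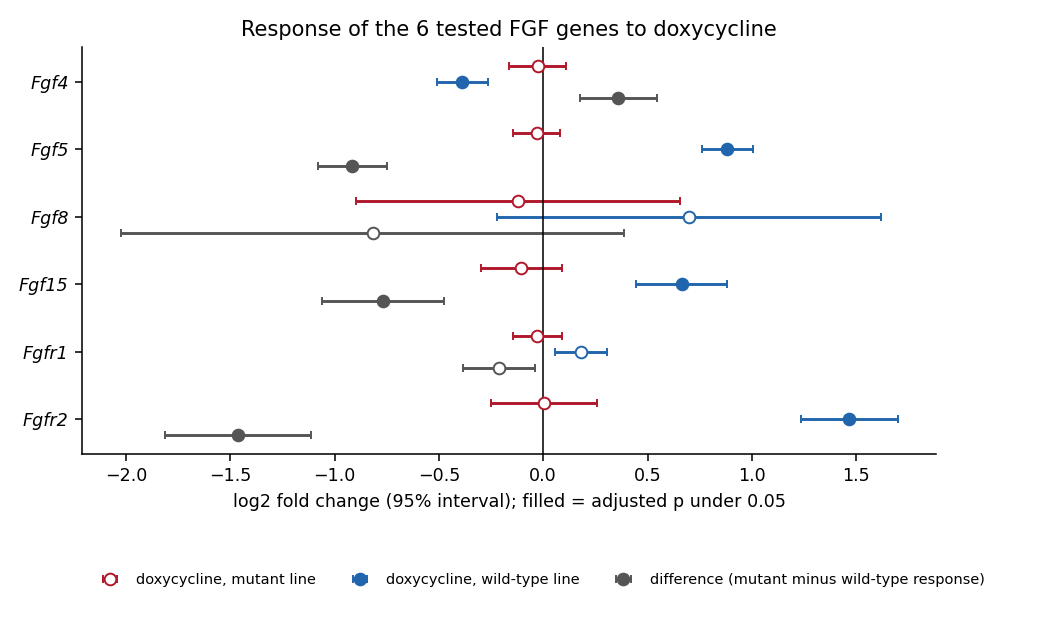
log2 fold change with doxycycline in the mutant line and in the wild-type line, and the mutant response minus the wild-type response, for the 6 tested genes. Whiskers are 95% intervals, and filled points have an edgeR adjusted p under 0.05. *Fgfr2*, *Fgf5* and *Fgf15* lie above 0 and *Fgf4* below 0 in the wild-type line, while all mutant-line intervals include 0.

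The lines already differed without doxycycline. *Fgf4* had 82.0, 78.8 and 93.9 CPM in the mutant line, against 165, 160 and 155 CPM in the wild-type line, and was lower by 0.92 on the log2 scale (edgeR adjusted p = 4.21e-18, SE 0.06). *Fgf5* had 170.5, 167 and 181 CPM in the mutant line, against 87.8, 90.4 and 80.9 CPM in the wild-type line, 2.00-fold higher (edgeR adjusted p = 1.80e-20, log2 fold change 1.00, SE 0.06). *Fgf15*, at 38.6, 40.9 and 40.6 CPM in the mutant line, against 27.4, 26.2 and 20.8 CPM in the wild-type line, was 1.62-fold higher (edgeR adjusted p = 2.54e-07). The lines did not overlap for these ligands or for *Fgfr1*, 4 of the 6 tested genes, as for 51.8% of all genes tested.

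*Fgfr1* was 1.20-fold higher in the mutant line without doxycycline (edgeR adjusted p = 0.000323), and *Fgfr2* was not called (log2 fold change 0.26, 95% interval −0.01 to 0.53, edgeR adjusted p = 0.106). The call of *Fgfr2* was gained, at edgeR adjusted p = 0.0452, when mutant library 3 without doxycycline was left out. *Fgf8* was not called either (log2 fold change 0.82, SE 0.44, edgeR adjusted p = 0.127), and *Fgfr4*, with 21 counts in the mutant line and 12 in the wild-type line, had a ratio of 1.61 (95% exact interval 0.755 to 3.58). These were 4 calls among 6 tested genes, where 45.5% of all genes tested were called, 23% higher and 22.6% lower, so a difference between the lines was common among genes at large. Markers differed as well. Of 9 epiblast markers 4 were called higher and 1 lower in the mutant line by edgeR, with sums of 6618 to 6843 CPM in the mutant line, against 6070 to 6351 CPM in the wild-type line. Neural plate markers summed to 192 to 212 CPM in the mutant line, against 54.0 to 60.8 CPM in the wild-type line. Among 3 tested, *Nes* and *Pax6* were called higher by edgeR. *Nes* made up most of these sums, with means of 188 CPM in the mutant line and 49.0 CPM in the wild-type line. Endoderm markers summed to 28.7 to 38.9 CPM in the mutant line, against 21.4 to 23.98 CPM in the wild-type line. Among 4 tested, *Gata4* and *Pth1r* were called higher by edgeR. The part of these cells in the line difference was not tested.

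With doxycycline in both lines, *Fgf5* no longer separated them. It had 178, 163 and 167 CPM in the mutant line, against 166, 161 and 151 CPM in the wild-type line, and the 95% interval of the log2 difference was −0.03 to 0.20 (edgeR adjusted p = 0.214). *Fgf15* had 36.2, 39.7 and 35.8 CPM in the mutant line, against 40.9, 41.8 and 35.2 CPM in the wild-type line (95% interval −0.27 to 0.12, edgeR adjusted p = 0.568). *Fgf4* stayed lower in the mutant line (85.9, 87.4 and 76.6 CPM, against 126, 119 and 122 CPM, edgeR adjusted p = 4.07e-10, log2 fold change −0.55, SE 0.07).

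*Fgfr2* was also lower in the mutant line. With doxycycline it had 20.4, 18.6 and 19.6 CPM in the mutant line, against 45.3, 45.1 and 44.1 CPM in the wild-type line, a log2 fold change of −1.20 (edgeR adjusted p = 8.88e-14, SE 0.11). Thus 2 of the 6 tested genes were called with doxycycline, both lower, where 44.4% of all genes tested were called, 22.4% of all lower. *Fgfr1* (log2 fold change 0.05, edgeR adjusted p = 0.494) and *Fgf8* (0.00, 95% interval −0.80 to 0.81, edgeR adjusted p = 0.997, with a sign that turned under other scalings) were not called. Neural plate markers summed to 189 to 214 CPM in the mutant line with doxycycline, against 58.0 to 64.4 CPM in the wild-type line with it. Of 3 tested, 1 was called higher and 1 lower by edgeR. The higher one, *Nes*, made up most of these sums, with means of 186 CPM in the mutant line and 45.1 CPM in the wild-type line. The lower one, *Pax6*, had 6.36 CPM in the mutant line and 9.93 CPM in the wild-type line. Endoderm markers summed to 29.3 to 32.1 CPM in the mutant line, against 17.8 to 19.95 CPM in the wild-type line (2 of 4 higher), and epiblast markers to 6540 to 6708 CPM in the mutant line, against 5680 to 5751 CPM in the wild-type line (5 of 9 higher). The part of such cells in these differences was not tested. *Fgf4* and *Fgfr2* had no overlap between the lines, as had 51.7% of all genes tested. The comparison of lines without doxycycline and the doxycycline response of the wild-type line share the wild-type libraries without doxycycline, so their values for one gene are not independent.

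Other ligands were scarce. Of 18 further FGF ligands 4 passed the filter and 2 had 0 counts in every library. For each of these 2 genes that allows an expected total of up to 3 counts over the 12 libraries. *Fgf10*, *Fgf13*, *Fgf14* and *Fgf17* were tested, and 0 were called with doxycycline in either line by edgeR or DESeq2, with 1 in the mutant line and 0 in the wild-type line at an unadjusted edgeR p under 0.05. *Fgf13*, an intracellular member of the family, had 14.3 ± 1.81 CPM in the mutant line and 7.93 ± 0.714 CPM in the wild-type line without doxycycline (SD, n = 3 each; log2 fold change 0.85, edgeR adjusted p = 5.73e-05). *Fgf14*, its intracellular relative, was also higher in the mutant line without doxycycline (log2 fold change 1.38, edgeR adjusted p = 0.00451).

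Among coreceptors and binding proteins, several also changed. Of 14 listed, 9 were tested, of which 4 rose, 1 fell and 4 were not called when wild-type FLAG-Lhx1 was induced, where 2.76% of all genes tested were called higher and 2.56% lower. The median log2 fold change of the 9 was 0.31. In the mutant line 0 were called by edgeR or DESeq2, with 3 at an unadjusted edgeR p under 0.05. *Fgfbp1*, a secreted protein that carries FGFs, had 6.93 ± 0.877 CPM with doxycycline and 2.59 ± 0.890 CPM without it (edgeR adjusted p = 0.000163, log2 fold change 1.40, SE 0.27). *Il17rd* (SEF), a membrane inhibitor of FGF signalling, had 114 ± 13.0 CPM with doxycycline and 80.6 ± 7.10 CPM without it (log2 fold change 0.50, edgeR adjusted p = 3.23e-05).

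*Gpc4* and *Gpc3*, heparan sulfate proteoglycans of the cell surface, rose with log2 fold changes of 1.16 (edgeR adjusted p = 3.72e-09, SE 0.14) and 0.45 (edgeR adjusted p = 0.000830, SE 0.09). Both lie on chromosome X, 823 and 374 kb from *Hprt*, the locus at which A2lox.cre cells take up their transgene. Neither was called with doxycycline in the mutant line, though both means were lower with it. There *Gpc3* had 48.2, 52.8 and 55.4 CPM with doxycycline, against 60.5, 59.8 and 63.3 CPM without it. These *Gpc3* libraries had no overlap, as had 10.6% of all genes tested. *Gpc4* had 35.5, 29.5 and 32.1 CPM with doxycycline in that line, against 32.8, 37.9 and 42.8 CPM without it, and overlapped. The difference of the responses was called for both (log2 −1.38, edgeR adjusted p = 5.31e-08, and −0.68, edgeR adjusted p = 0.000196). *Hprt* itself rose with doxycycline in both lines. It had 18.6 to 21.8 CPM with doxycycline, against 6.87 to 8.13 CPM without it, in the mutant line (edgeR adjusted p = 5.79e-09), and 37.3 to 43.9 CPM with doxycycline, against 10.2 to 10.9 CPM without it, in the wild-type line (edgeR adjusted p = 1.70e-18). The part of the transgene's position in the *Gpc3* and *Gpc4* results was not tested. *Fgfbp3* fell (log2 fold change −1.05, edgeR adjusted p = 0.0271), a call that was lost in DESeq2 (adjusted p = 0.150), without wild-type libraries 2 with and 3 without doxycycline (edgeR, 0.251) and when any of wild-type libraries 2 or 3 of either treatment was left out (0.0736 to 0.171).

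Calls were few among heparan sulfate enzymes and the relay from receptor to ERK, as they were among genes at large (5.32% of all genes tested in the wild-type line). Of 12 heparan sulfate enzymes 0 were called in either line by edgeR or DESeq2, with 0 in the mutant line and 3 in the wild-type line at an unadjusted edgeR p under 0.05. Of 22 adaptors and RAS to ERK genes 1 was called in the wild-type line. Of 18 feedback and immediate early genes 1 rose and 1 fell. *Dusp4*, an ERK phosphatase, rose by 0.98 on the log2 scale (edgeR adjusted p = 1.09e-18), and *Egr1* fell by 0.63 (edgeR adjusted p = 0.0160), a call lost in DESeq2 (adjusted p = 0.0797) and when any of wild-type libraries 1 or 2 of either treatment was left out (edgeR adjusted p = 0.0741 to 0.131). The other 16 were not called, with log2 fold changes of −0.77 to 0.82 (edgeR adjusted p = 0.155 to 0.979). Among the Sprouty inhibitors *Spry4* had 112, 115 and 110.2 CPM with doxycycline, against 98.2, 104 and 98.6 CPM without it, with no overlap (log2 fold change 0.16, edgeR adjusted p = 0.155), *Spry1* had a log2 fold change of 0.19 and *Spry2* one of 0.02. The ETS factors *Etv1* (0.01), *Etv4* (0.11) and *Etv5* (0.00) and the ERK phosphatase *Dusp6* (−0.01) were near 0 on the same scale. The median log2 fold changes of these 3 lists were 0.03, −0.02 and 0.02.

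Between the lines without doxycycline many of these genes differed. Of the heparan sulfate enzymes 7 were higher and 2 lower in the mutant line, led by *Extl3* (77.7 ± 4.805 CPM in the mutant line and 38.7 ± 3.62 CPM in the wild-type line, SD, n = 3 each, edgeR adjusted p = 3.93e-15) and *Hs6st2*, a sulfotransferase (26.6 ± 1.09 CPM in the mutant line and 10.5 ± 1.45 CPM in the wild-type line, edgeR adjusted p = 2.70e-11). Of the feedback and early genes 8 were higher and 5 lower, among them *Dusp6* (152 ± 7.43 CPM in the mutant line and 93.8 ± 7.68 CPM in the wild-type line) and the ETS factor *Etv4* (27.7 ± 1.96 CPM in the mutant line and 59.0 ± 1.28 CPM in the wild-type line). *Gab1*, a docking protein below the receptors, had 141 ± 4.19 CPM in the mutant line and 297 ± 25.6 CPM in the wild-type line (log2 fold change −1.07, edgeR adjusted p = 6.38e-24). These counts stand beside the 45.5% of all genes that were called.

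**Figure D5:**
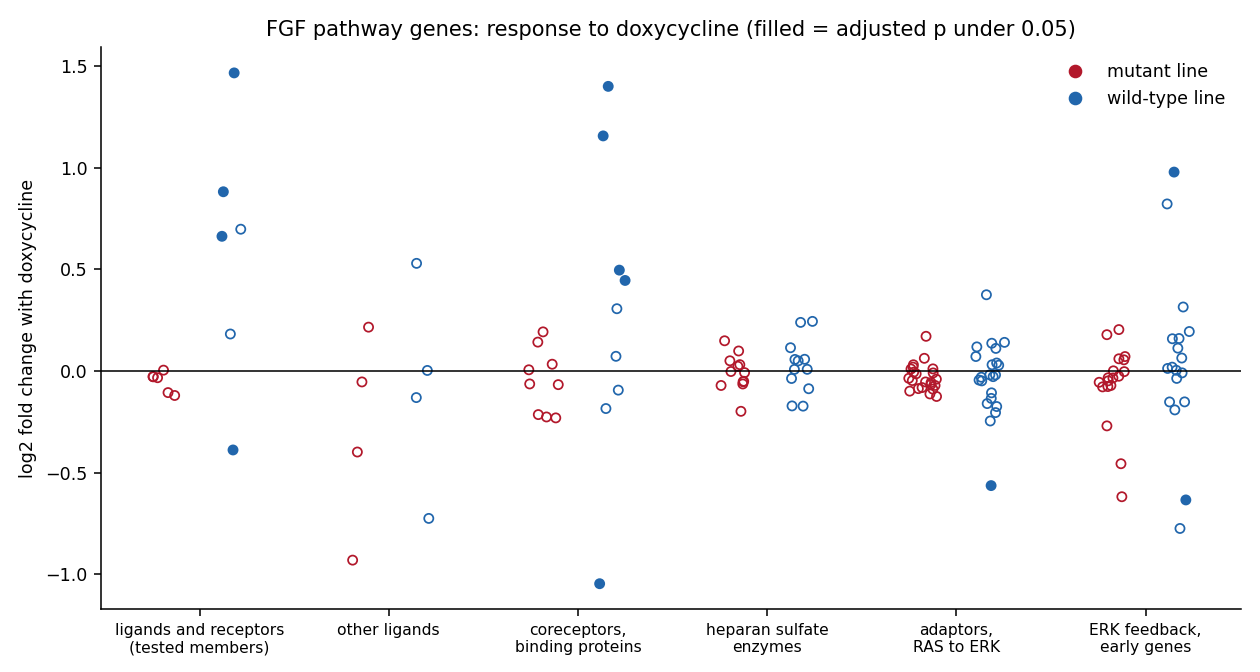
log2 fold change with doxycycline of the tested genes in each list, for the mutant line and the wild-type line. Each point is a gene, filled where the edgeR adjusted p was under 0.05. Filled points occur in the wild-type line among the ligands and receptors (4 of 6), the coreceptors and binding proteins (5 of 9), the adaptors (1 of 22) and the feedback genes (2 of 18), and no point is filled in the mutant line.

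Genes whose levels tracked the members over the 12 libraries were looked for among 8656 genes with a mean of at least 10 CPM. Many genes tracked some members: 463 had a Pearson r over 0.9 with *Fgf4* and 42 with *Fgf5*. Such genes numbered 17 for *Fgfr2*, 16 for *Fgf15*, 3 for *Fgfr1* and 0 for *Fgf8*. The closest to *Fgf5* were *Cxxc5* (Pearson r = 0.982) and *Itga5* (0.981), and *Cxxc5* averaged 79.7 CPM in the mutant line with doxycycline, 83.6 in the mutant line without it, 76.5 in the wild-type line with it and 36.02 in the wild-type line without it. *Fgf4* was closest to *Fth1* (0.985) and *Dynll2* (0.983), *Fgf15* to *Ap2b1* (0.947) and *Fzd2* (0.936), *Fgfr1* to *Rnf26* (0.913) and *Ckap4* (0.903), and *Fgf8* to *Rrp1* (0.877) and *Apmap* (0.857). *Fgfr2* was closest to *Sec24b* (0.969) and to *Eras*, a RAS protein of embryonic stem cells (0.963), which averaged 35.2 CPM in the mutant line with doxycycline, 34.1 in the mutant line without it, 90.1 in the wild-type line with it and 31.3 in the wild-type line without it. The points share their libraries and fall into 4 groups, so these values describe a likeness of group means.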

How the data were processed

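Raw counts of reads per gene symbol were deposited by the authors as 1 table of 23086 symbols by 12 libraries, whose column names match the sample titles. Per the submitters' processing notes, Trimmomatic 0.33, TopHat2 2.1.1, limma and the mm10 genome were used. The counting tool, annotation and strand setting are not stated in the material used here. Libraries were made with a TruSeq kit, per the labels' protocols.

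Counts were tested with edgeR 4.0.16 (R 4.3.3), TMM scaling, filterByExpr (minimum count 10, total 15) and robust quasi-likelihood fits of all 12 libraries with 1 mean per group, which left 12322 genes. P-values were adjusted by Benjamini-Hochberg within each of 5 comparisons and called under 0.05. SEs and 95% intervals come from the F statistic and can be too narrow at few counts. RPKM used GENCODE M21 exon unions, and positions and promoter windows are from RefSeq GRCm38.p6. Of the 8 members 5 had a window. *Hras* was matched as Hras1, and 1 listed symbol had no row. The fit was tested on simulated data. No pair of replicates agreed within counting noise (lowest chi-square per degree of freedom 1.11), and none were merged. At 4289984 to 4850393 counts per library, genes near 2 CPM rest on about 10 counts.

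The members and lists were chosen with earlier results of these data known. Named were all members, the most strongly called genes of each list (up to 3 in the wild-type response and 2 elsewhere), and the 2 genes most like each tested member. One gene that met this rule is not reported here. Chosen after seeing their values were *Ccnd1*, *Fgf3*, *Rn45s*, *Bnip3*, *Fgfbp3*, *Hprt*, and the wild-type values of *Gpc3*, *Dusp6* and the Sprouty and ETS genes, the marker genes named and the promoter motifs. The mutant-line values of *Gpc3* and *Gpc4* were chosen in the same way. Alternatives were other scalings, no filter, DESeq2 1.42.0, limma-voom (limma 3.58.1), fewer libraries and a replicate block.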

Additional observations from a re-analysis of the deposited data

Results flagged for a closer look

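The doxycycline responses of 4 genes differed between the lines by a test of the difference itself (mutant response minus wild-type response, log2, edgeR with Benjamini-Hochberg adjustment over 12322 genes). *Fgfr2* had a difference of −1.46, with a response of 0.00 in the mutant line and 1.47 in the wild-type line. *Fgf5* had −0.91, from responses of −0.03 in the mutant line and 0.88 in the wild-type line. *Fgf15* had −0.77 (−0.11 in the mutant line and 0.66 in the wild-type line), and *Fgf4* had 0.36 (−0.03 in the mutant line and −0.39 in the wild-type line). The first 3 differences were called in each of the 19 alternatives run, and that of *Fgf4* in 14 of them. For *Fgf5*, *Fgf15* and *Fgf4* the mutant line without doxycycline already lay on the side of the wild-type line to which the wild-type response moved. For these ligands the libraries of the uninduced lines did not overlap. The *Fgfr2* mean of the uninduced mutant line (19.5 ± 2.73 CPM) also lay on that side of the uninduced wild-type line (16.2 ± 1.96 CPM). There the libraries overlapped and the difference was not called (edgeR adjusted p = 0.106). The induced wild-type line had 44.8 ± 0.612 CPM of *Fgfr2* (SD, n = 3 each). Groups of 3 libraries were too small to look for single libraries that stood out in these genes.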

How the results depend on the processing

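The number of tested members called kept within 1.5 times its value in each of the 5 comparisons under every alternative run (leaving out libraries gave 3 to 4 in the difference of the responses and 4 to 5 between the lines without doxycycline). The count of all genes called moved more in 3 cases. DESeq2 called 380 genes with doxycycline in the wild-type line, against 655, and 153 in the difference of the responses, against 307, and the fit of the mutant line's own libraries called 5 with doxycycline, against 2. With the longest transcript as gene length, the *Fgfr2* share differed by 13.7 percentage points with doxycycline in the wild-type line, against 12.02 with the union of exons. Between the lines with doxycycline it differed by −13.5, against −11.9, and the *Fgfr1* share by 13.8, against 12.5. The *Fgfr4* share differed by 0.701 with doxycycline in the wild-type line (0.494 with no length correction), against 1.36. The counts were the same in each setting, so only these shifts come from the lengths. Directions turned for values that were not called in either setting. *Fgf8* between the lines with doxycycline was −0.00115 with DESeq2 size factors, −0.000642 with upper-quartile scaling, −0.00607 in DESeq2 and −0.00614 with the replicate block, and *Ccnd1* in the wild-type line was 0.00537 with upper-quartile scaling and 0.000253 in limma-voom. Leaving out libraries moved the mutant response of *Fgf4* over −0.0791 to 0.0511, *Fgf5* over −0.0688 to 0.00331, *Fgf8* over −0.40 to 0.31, *Fgfr1* over −0.0842 to 0.0482 and *Fgfr2* over −0.0849 to 0.113, *Fgf8* between the lines with doxycycline over −0.27 to 0.22, and *Ccnd1* over −0.0751 to 0.0408.

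Same-numbered libraries of different groups did not deviate together (r = −0.15 to 0.16 over 18 pairs, 2 of them over 0.1), so the numbers were not taken as pairs. With the replicate block 4 members were called in the wild-type response, 0 in the mutant response and 4 in the difference, as without it. At this depth the data limit *Fgf8*, *Fgfr3* and *Fgfr4*, which rest on 2 to 17 counts a library.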
